A study of Mus musculus with 22 samples.

Results

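Club and secretory airway cell genes were examined as a set of 10: Scgb1a1, Scgb3a1, Scgb3a2, Bpifa1, Bpifb1, Muc5b, Cbr2, Gp2, Reg3g and Cldn10. They were picked by name as genes that mark or are secreted by the non-ciliated cells of the conducting airways. Earlier results of these data were known when they and the other gene lists below were chosen, so their counts are descriptions. The deposited table held 54532 genes, and all 10 were expressed above the low-count filter that left 16638 genes to test. Whole-lung RNA came from male, young mice of the strain given as C57BL6/j, kept in hypoxia or normoxia for 8 days. ABT-263 (navitoclax, a BCL-2 family inhibitor used to remove senescent cells) was given at 50 mg/kg per day, or its vehicle. There were 5 hypoxia ABT-263, 6 hypoxia vehicle, 6 normoxia ABT-263 and 5 normoxia vehicle libraries. For replicate 1 of the hypoxia ABT-263, hypoxia vehicle and normoxia ABT-263 groups, the title and the treatment tag name different treatments, and groups follow the titles. The oxygen fraction and the number of animals behind each library are not given in the sources used here, so p values measure the spread between these libraries. Library totals ran from 11509007 to 15744193 counts. In bulk lung RNA, fewer airway secretory cells and less RNA per cell cannot be told apart.

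Club cells line the bronchioles, release secretoglobins into the airway fluid, inactivate inhaled chemicals with cytochrome P450 and carbonyl reductase enzymes, and act as progenitors when the airway is injured. Other secretory cells, more frequent in the larger airways, release gel-forming mucins and proteins that bind or kill microbes. The set holds both kinds of product: the club cell proteins Scgb1a1, Scgb3a2, Cbr2 and Cldn10, and the more proximal Scgb3a1, Bpifa1, Bpifb1, Muc5b, Reg3g and Gp2.

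The promoters of 5 members whose levels are described at length below are shown as 300 bases each, from 250 bases before to 50 bases after the transcription start of RefSeq on GRCm38.p6, 5′ to 3′ on the strand of the gene. Of the 10 members, Scgb3a1 (chr11:49663345-49663644, plus strand), Gp2 (chr7:119459223-119459522, minus strand), Reg3g (chr6:78468825-78469124, minus strand) and Bpifa1 (chr2:154142630-154142929, plus strand) varied together between libraries, and Cbr2 (chr11:120731972-120732271, minus strand) was lower in hypoxia. Capitals mark every match, on either strand, to any of 6 motifs: the core of the hypoxia-inducible factor site ACGTG, the forkhead site TGTTTAC or TGTTTGC, the NKX2-1 site CTCAAG or CACTTG, the C/EBP site TTGCNNCAA, the AP-1 site TGANTCA and the TATA element TATAAA.
Scgb3a1: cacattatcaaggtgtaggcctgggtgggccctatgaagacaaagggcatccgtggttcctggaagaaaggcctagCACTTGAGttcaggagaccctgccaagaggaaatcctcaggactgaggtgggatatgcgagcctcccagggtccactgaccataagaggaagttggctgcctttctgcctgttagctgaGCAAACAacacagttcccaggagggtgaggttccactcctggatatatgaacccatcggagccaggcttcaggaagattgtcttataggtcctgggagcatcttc
Gp2: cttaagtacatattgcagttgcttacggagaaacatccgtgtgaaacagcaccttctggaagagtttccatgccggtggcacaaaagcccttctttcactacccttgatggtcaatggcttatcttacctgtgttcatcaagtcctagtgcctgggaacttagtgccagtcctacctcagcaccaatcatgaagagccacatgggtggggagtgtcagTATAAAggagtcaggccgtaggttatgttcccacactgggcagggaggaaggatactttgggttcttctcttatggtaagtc
Reg3g: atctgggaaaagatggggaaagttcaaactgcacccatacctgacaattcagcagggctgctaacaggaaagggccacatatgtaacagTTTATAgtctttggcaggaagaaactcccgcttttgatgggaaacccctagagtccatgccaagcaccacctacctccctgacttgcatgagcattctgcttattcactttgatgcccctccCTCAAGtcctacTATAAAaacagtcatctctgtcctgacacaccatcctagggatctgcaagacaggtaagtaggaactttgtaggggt
Bpifa1: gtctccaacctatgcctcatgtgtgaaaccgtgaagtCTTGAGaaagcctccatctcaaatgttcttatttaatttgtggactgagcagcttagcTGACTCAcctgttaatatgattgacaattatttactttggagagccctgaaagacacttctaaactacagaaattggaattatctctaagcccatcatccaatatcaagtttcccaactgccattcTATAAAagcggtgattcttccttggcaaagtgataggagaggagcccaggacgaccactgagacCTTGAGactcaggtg
Cbr2: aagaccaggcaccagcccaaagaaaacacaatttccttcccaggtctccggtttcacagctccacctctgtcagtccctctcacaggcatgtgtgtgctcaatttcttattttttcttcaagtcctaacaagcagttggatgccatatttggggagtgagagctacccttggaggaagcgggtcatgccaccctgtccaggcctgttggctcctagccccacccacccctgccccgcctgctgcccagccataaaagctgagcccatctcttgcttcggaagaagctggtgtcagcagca

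Positions count from the RefSeq start, with negative ones before it. For Scgb3a1 and Reg3g the first bases from that start did not match the transcript they were compared with, so their positions are less certain. In Scgb3a1 the capitals are a forkhead match that begins at −55 and overlapping NKX2-1 matches that begin at −174 and −172. Gp2 holds a TATA element at −32. Reg3g has a TATA element at −27 and a second match on the other strand at −161, with an NKX2-1 match at −39. Bpifa1 has a TATA element at −29, an AP-1 match at −155 and NKX2-1 matches at −213 and 36. No motif was found in the Cbr2 window, and the hypoxia-inducible factor core was absent from all 5 windows. The first of the 2 Cldn10 windows, not shown here, held that core at −136, with its start uncertain in the same way as for Scgb3a1 and Reg3g. Among 32851 promoters of this length, 19.6% held the hypoxia-inducible factor core, 8.48% a forkhead, 26.4% an NKX2-1, 2.08% a C/EBP, 7.81% an AP-1 and 13.6% a TATA match. A match is a description of these letters and not a bound site.

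Levels between members differed over a wide range. Per length of transcript (TPM, scaled by union exon length), Scgb1a1 ranked 1 of all genes in both hypoxia ABT-263 and normoxia vehicle libraries. Scgb3a2 ranked 10 in hypoxia ABT-263 and 13 in normoxia vehicle libraries, and Cbr2 ranked 15 and 9 in the same groups. At the other end Gp2 ranked 4744 in hypoxia ABT-263 and 12392 in normoxia vehicle libraries, and Muc5b ranked 9538 in hypoxia ABT-263 and 8763 in normoxia vehicle libraries. All 10 members together took 4.98% ± 0.654 of the counts in hypoxia ABT-263 (SD, n = 5), 6.30% ± 0.824 in hypoxia vehicle (SD, n = 6), 8.02% ± 1.46 in normoxia ABT-263 (SD, n = 6) and 8.40% ± 0.989 in normoxia vehicle libraries (SD, n = 5). Scgb1a1 supplied most of that sum.

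**Figure D1:**
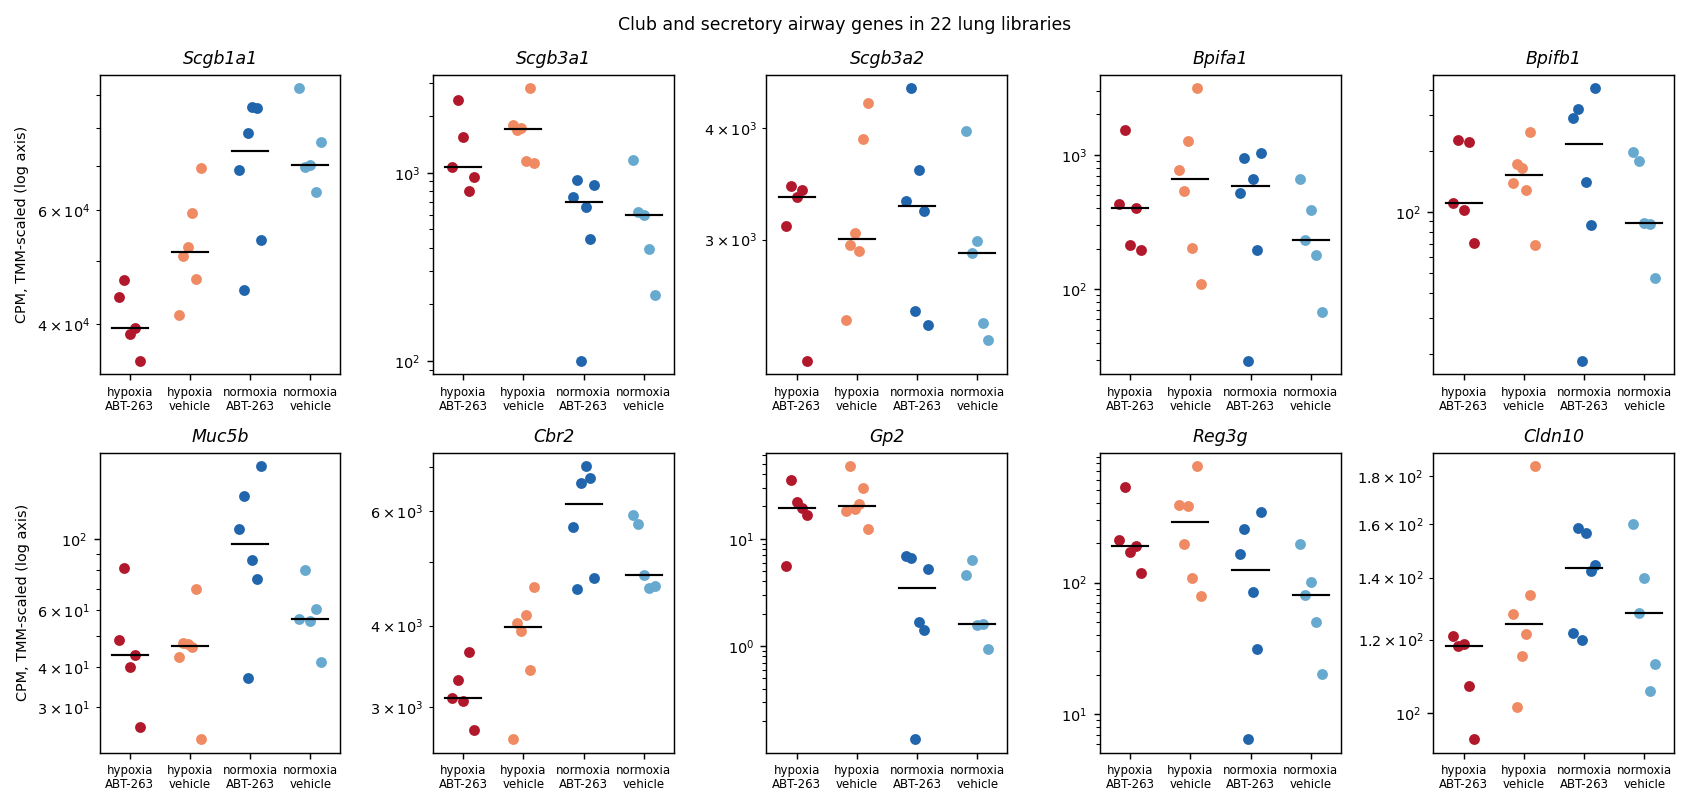
Level of each of the 10 genes in every library, in CPM (counts scaled to the library total with TMM factors) on log axes, by group; points are libraries and bars are group medians. Gp2 was above 12 CPM in 10 of 11 hypoxia libraries and below 7 CPM in all 11 normoxia libraries, whereas Cbr2 and Scgb1a1 sat lower in hypoxia.

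Hypoxia moved the set in both directions. Over both treatments Gp2 and Scgb3a1 rose, Scgb1a1, Cbr2 and Muc5b fell, and Scgb3a2, Bpifa1, Bpifb1, Reg3g and Cldn10 did not pass the test. That is 2 of 10 members higher and 3 lower (edgeR's quasi-likelihood test, adjusted p under 0.05 over 16638 genes), where 49% of all genes tested were called, 23% of them higher and 26% lower as shares of the genes tested. The share of the members called is close to that of all genes, so the count by itself says nothing particular of the members. Their median log2 fold change was −0.02, as was that of all genes tested.

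With vehicle, hypoxia called 4 of the 10 members, Gp2 and Scgb3a1 higher and Scgb1a1 and Cbr2 lower, against 26.3% of all genes tested (13.5% higher and 12.8% lower). With ABT-263 it called 5, Gp2 higher and Scgb1a1, Cbr2, Muc5b and Cldn10 lower, against 39.2% of all genes (17.9% higher and 21.3% lower). Without the 3 libraries with conflicting labels the vehicle count was 1, Gp2. The median log2 fold change of the members was 0.26 with vehicle and −0.20 with ABT-263, beside −0.00376 with vehicle and −0.02 with ABT-263 for all genes tested.

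**Figure D2:**
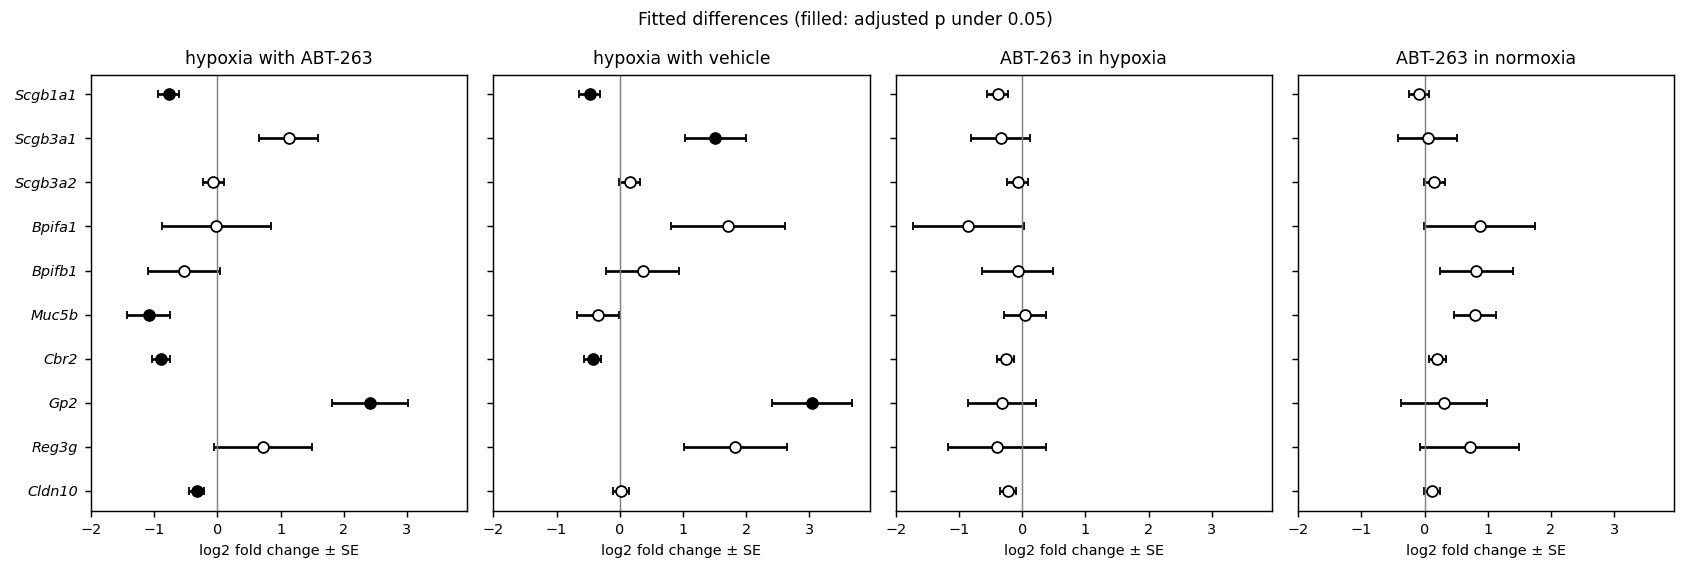
Log2 fold change of each member with its standard error for hypoxia over normoxia in ABT-263 and in vehicle libraries, and for ABT-263 over vehicle in hypoxia and in normoxia; filled points passed an adjusted p under 0.05. Filled points are found only in the hypoxia panels, where Gp2 reaches 3.05 with vehicle and 2.42 with ABT-263.

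Scgb1a1 encodes the club cell secretory protein (uteroglobin), the most abundant secretoglobin of mouse airway fluid (ENSMUSG00000024653; GRCm38 chromosome 19, 9083636 to 9087958, minus strand). In hypoxia ABT-263 libraries it stood at 35190, 38701, 39461, 44123 and 46793 CPM, and in hypoxia vehicle libraries it ranged from 41331 to 69449 with a median of 51734 CPM. In normoxia ABT-263 libraries it ranged from 45164 to 86168 with a median of 73903 CPM, and in normoxia vehicle libraries it stood at 63802, 69700, 70167, 76157 and 92221 CPM. By group medians the order was hypoxia ABT-263, hypoxia vehicle, normoxia vehicle and normoxia ABT-263, and every pair of neighbours overlapped. With vehicle, 5 of 6 hypoxia libraries lay below the lowest normoxia library, and with ABT-263, 4 of 5 did. Scgb1a1 fell by 0.63 on the log2 scale over both treatments (−0.63 ± 0.12 SE, edgeR's adjusted p = 8.09e-05). The difference was −0.77 ± 0.16 with ABT-263 (adjusted p = 0.000639) and −0.48 ± 0.16 with vehicle (adjusted p = 0.0303). The vehicle call was lost without normoxia vehicle replicate 1 or 5 or hypoxia vehicle replicate 1, 3 or 5, with values between −0.47 and −0.39, and without the 3 libraries with conflicting labels (−0.41, adjusted p = 0.0908). As a share of all counts Scgb1a1 took 4.10% ± 0.488 in hypoxia ABT-263 (SD, n = 5), 5.26% ± 0.845 in hypoxia vehicle (SD, n = 6), 6.93% ± 1.49 in normoxia ABT-263 (SD, n = 6) and 7.47% ± 0.866 in normoxia vehicle libraries (SD, n = 5).

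Cbr2, a carbonyl reductase of club cells that reduces reactive carbonyl compounds, was lower in hypoxia with both treatments (ENSMUSG00000025150; chromosome 11, 120729489 to 120732114, minus strand). Levels in hypoxia ABT-263 libraries were 2766, 3065, 3096, 3297 and 3647 CPM, and hypoxia vehicle libraries ran from 2681 to 4578 with a median of 3982 CPM. Normoxia ABT-263 libraries ran from 4560 to 7020 with a median of 6150 CPM, and normoxia vehicle libraries were at 4569, 4599, 4788, 5719 and 5919 CPM. With ABT-263 the hypoxia and normoxia libraries did not overlap, and over both treatments 10 of 11 hypoxia libraries lay below the lowest normoxia library. The exception was hypoxia vehicle replicate 6, the highest of its group. Cbr2 had a log2 fold change of −0.66 ± 0.09 over both treatments (adjusted p = 3.26e-06), −0.89 ± 0.14 with ABT-263 (adjusted p = 1.58e-05) and −0.43 ± 0.13 with vehicle (adjusted p = 0.0181). The vehicle call was lost without normoxia vehicle replicate 2 (−0.39, adjusted p = 0.0515) and without the 3 libraries with conflicting labels (−0.34, adjusted p = 0.061).

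Scgb3a2, another secretoglobin of club cells whose gene is a target of NKX2-1 in mice, did not follow Scgb1a1 (ENSMUSG00000038791; chromosome 18, 43764289 to 43767399, plus strand). In hypoxia ABT-263 libraries it stood at 2194, 3108, 3348, 3412 and 3445 CPM, and in hypoxia vehicle libraries between 2439 and 4276 with a median of 3008 CPM. In normoxia ABT-263 libraries it was between 2403 and 4439 with a median of 3277 CPM, and in normoxia vehicle libraries at 2317, 2419, 2895, 2987 and 3978 CPM. All 4 groups overlapped, and the log2 difference over both treatments was 0.05 ± 0.12 (adjusted p = 0.778; 95% interval −0.19 to 0.28). The ratio of Scgb1a1 to Scgb3a2 CPM was 11.6 to 16.0 in hypoxia ABT-263 and 12.1 to 20.4 in hypoxia vehicle libraries, against 10.2 to 31.6 in normoxia ABT-263 and 23.2 to 32.9 in normoxia vehicle libraries. With vehicle these ratios did not overlap between hypoxia and normoxia. The ratio was chosen after its values were seen and carries no test.

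Cldn10 encodes a claudin of tight junctions that marks club cells in mice (ENSMUSG00000022132; chromosome 14, 118787908 to 118875489, plus strand). It lies over an rRNA gene on the other strand, and whether the counting used strand is not given in the sources used here. Its range was 93.7 to 121 CPM in hypoxia ABT-263, 101 to 184 CPM in hypoxia vehicle, 120 to 158 CPM in normoxia ABT-263 and 106 to 160 CPM in normoxia vehicle libraries. It fell with ABT-263 only narrowly (−0.33 ± 0.13, adjusted p = 0.0384), and this call was lost under 14 of 31 alternatives. With vehicle the log2 difference was 0.02 ± 0.12 (adjusted p = 0.945), and over both treatments −0.16 ± 0.09 (adjusted p = 0.143).

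Gp2 showed the largest change of the 10 in hypoxia. It encodes glycoprotein 2, a surface and secreted protein that binds bacterial fimbriae and is known from the pancreas and from microfold cells of the gut (ENSMUSG00000030954; chromosome 7, 119442537 to 119459285, minus strand). Hypoxia ABT-263 libraries had 5.63, 16.8, 19.2, 22.02 and 35.5 CPM, and hypoxia vehicle libraries had 12.4 to 47.3 with a median of 20.03 CPM. Normoxia ABT-263 libraries had 0.136 to 6.92 with a median of 3.46 CPM, and normoxia vehicle libraries had 0.928, 1.57, 1.59, 4.59 and 6.29 CPM. With vehicle the groups did not overlap. Over both treatments 10 of 11 hypoxia libraries were above the highest normoxia library, and hypoxia ABT-263 replicate 1, at 5.63 CPM, was not. The log2 fold change was 2.73 ± 0.44 over both treatments (6.64-fold, adjusted p = 4.83e-05), 3.05 ± 0.64 with vehicle (adjusted p = 0.00183) and 2.42 ± 0.60 with ABT-263 (adjusted p = 0.00373). It kept its call under each of the 31 alternatives with vehicle and each of the 31 with ABT-263, with values from 2.62 to 3.496 and from 2.10 to 2.98. Of 5 tested genes listed for microfold cells, none was higher over both treatments and 2 were lower, Spib (−1.24 ± 0.10) and Tnfrsf11a (−0.32 ± 0.10). Among all genes tested 23% were higher and 26% lower. Which cells held the Gp2 RNA was not tested.

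Scgb3a1, a secretoglobin of the larger airways, was also higher in hypoxia (ENSMUSG00000064057; chromosome 11, 49663610 to 49665118, plus strand). It was at 798, 956, 1070, 1557 and 2424 CPM in hypoxia ABT-263 libraries and between 1127 and 2818 with a median of 1712 CPM in hypoxia vehicle libraries. In normoxia ABT-263 libraries it lay between 100 and 920 with a median of 703 CPM, and in normoxia vehicle libraries at 225, 395, 600, 622 and 1172 CPM. The groups overlapped, with 6 of 11 hypoxia libraries above the highest normoxia library and none below the lowest. Scgb3a1 rose over both treatments (1.32 ± 0.33, 2.50-fold, adjusted p = 0.00313) and with vehicle (1.51 ± 0.48, adjusted p = 0.0269). With ABT-263 the value was 1.13 ± 0.47 and was not called (adjusted p = 0.0625), and the vehicle and ABT-263 differences were not told apart (−0.38 ± 0.66, adjusted p = 0.917). Of 31 alternatives, 8 did call it with ABT-263, among them DESeq2 (1.15, adjusted p = 0.0195) and limma-voom (1.30, adjusted p = 0.028). The vehicle call was lost without normoxia vehicle replicate 2, 3, 4 or 5 or hypoxia vehicle replicate 5, with values from 1.30 to 1.52, and without the 3 libraries with conflicting labels (1.5004, adjusted p = 0.0543), and with no low-count filter (1.51, adjusted p = 0.0531).

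Muc5b, the main gel-forming mucin of mouse airways, was lower in hypoxia with ABT-263 (ENSMUSG00000066108; chromosome 7, 141839070 to 141873084, plus strand). Hypoxia ABT-263 libraries held 26.0, 39.9, 43.4, 48.6 and 81.5 CPM, and hypoxia vehicle libraries held 23.9 to 70.0 with a median of 46.6 CPM. Normoxia ABT-263 libraries held 37.0 to 169 with a median of 96.9 CPM, and normoxia vehicle libraries held 41.4, 55.4, 56.4, 60.6 and 80.0 CPM. The groups overlapped in both comparisons. The log2 fold change was −0.72 ± 0.24 over both treatments (adjusted p = 0.018) and −1.09 ± 0.34 with ABT-263 (adjusted p = 0.0164), and with vehicle it was −0.34 ± 0.33 (adjusted p = 0.49). The highest normoxia ABT-263 libraries were replicates 2 and 6, at 136 and 169 CPM, and without both the value was −0.51 over both treatments (adjusted p = 0.0697) and −0.67 with ABT-263 (adjusted p = 0.121). Leaving out the 3 libraries with conflicting labels gave −0.69 over both treatments (adjusted p = 0.0568) and −1.06 with ABT-263 (adjusted p = 0.0598), and leaving out hypoxia ABT-263 replicate 5 gave −0.92 with ABT-263 (adjusted p = 0.0504). A fit of only the groups compared gave −1.07 with ABT-263 (adjusted p = 0.0666). Without normoxia ABT-263 replicate 6 alone the value was −0.87 and the call was kept (adjusted p = 0.0465).

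Reg3g, a lectin that kills Gram-positive bacteria, and Bpifa1, a secreted surface-active defence protein also called SPLUNC1, spread widely within each group. Reg3g (ENSMUSG00000030017; chromosome 6, 78466269 to 78468872, minus strand) had 117, 171, 189, 210 and 525.7 CPM in hypoxia ABT-263, 78.6 to 758 with a median of 289 CPM in hypoxia vehicle, 6.52 to 341 with a median of 124 CPM in normoxia ABT-263, and 20.4, 49.8, 80.7, 101 and 196 CPM in normoxia vehicle libraries. Bpifa1 (ENSMUSG00000027483; chromosome 2, 154142880 to 154149219, plus strand) had 197, 215, 400, 430 and 1542 CPM in hypoxia ABT-263, 109 to 3135 with a median of 658 CPM in hypoxia vehicle, 29.5 to 1025 with a median of 590 CPM in normoxia ABT-263, and 68.3, 180, 234, 390 and 667 CPM in normoxia vehicle libraries. For both genes hypoxia vehicle replicate 5 was the highest library of all and normoxia ABT-263 replicate 3 the lowest. Neither passed: over both treatments Reg3g was at 1.28 ± 0.56 (adjusted p = 0.0651) and Bpifa1 at 0.85 ± 0.62 (adjusted p = 0.27). DESeq2 and limma-voom did call Reg3g over both treatments, at 1.28 (adjusted p = 0.0316) and 1.60 (adjusted p = 0.02). With vehicle the values were 1.83 ± 0.81 for Reg3g (adjusted p = 0.104) and 1.71 ± 0.90 for Bpifa1 (adjusted p = 0.175), and without hypoxia vehicle replicate 5 they were 1.36 for Reg3g and 0.92 for Bpifa1. With ABT-263 they were 0.72 ± 0.77 for Reg3g (adjusted p = 0.488) and −0.02 ± 0.87 for Bpifa1 (adjusted p = 0.989).

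Bpifb1, a longer relative of Bpifa1 from the same cluster on chromosome 2 (ENSMUSG00000027485; 154190818 to 154220369, plus strand), showed no called difference. It ranged over 70.3 to 226 CPM in hypoxia ABT-263, 69.1 to 249.3 CPM in hypoxia vehicle, 18.5 to 409 CPM in normoxia ABT-263 and 47.2 to 198 CPM in normoxia vehicle libraries. Over both treatments its log2 difference was −0.09 ± 0.40 (adjusted p = 0.878; 95% interval −0.87 to 0.70), so changes of up to that size are not resolved.

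Beneath the group differences, 6 members varied together from library to library. After group means of log2 CPM were subtracted, all 15 pairs among Scgb3a1, Bpifa1, Bpifb1, Muc5b, Gp2 and Reg3g were positively correlated over 22 libraries. Pearson's r lay between 0.67 (Bpifa1 with Gp2; rho 0.55, permutation p = 0.0025 and 0.0137, adjusted p = 0.00662 for r) and 0.95 (Bpifa1 with Reg3g; rho 0.95, permutation p = 1e-05, the smallest that 100000 resamples can give, adjusted p = 7.5e-05). Without the 2 libraries farthest from the median on the first gene of the pair, r was 0.46 for Bpifa1 with Gp2 and 0.93 for Bpifa1 with Reg3g. Scgb1a1 and Cbr2 formed a second pair (r = 0.85, rho 0.85, permutation p = 2e-05 and 6e-05, adjusted p = 1e-04 for r; r = 0.82 without 2 libraries). Scgb3a2 and Cldn10 formed another pair (r = 0.72, rho 0.73, permutation p = 5e-04 and 0.00054, adjusted p = 0.00161 for r; r = 0.68 without 2 libraries). These are all 17 of the 45 pairs that passed at an adjusted p under 0.05, and no pair passed with a negative r. For the 6 genes, r over the 15 pairs lay between 0.35 and 0.98 within the 6 hypoxia vehicle libraries. Within the 6 normoxia ABT-263 libraries it lay between 0.91 and 0.99. Whether these groups differed was not tested, and r within normoxia ABT-263 without its replicate 3 is not given. Without normoxia ABT-263 replicate 3, the lowest library of its group for all 6, r lay between 0.47 and 0.93 over 21 libraries. Without the whole normoxia ABT-263 group it lay between 0.44 and 0.97 over 16 libraries, and Bpifa1 with Gp2 was the lowest pair in both cases. Groups of 5 libraries are too small for a correlation of their own, and these values are descriptions without a test.

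**Figure D3:**
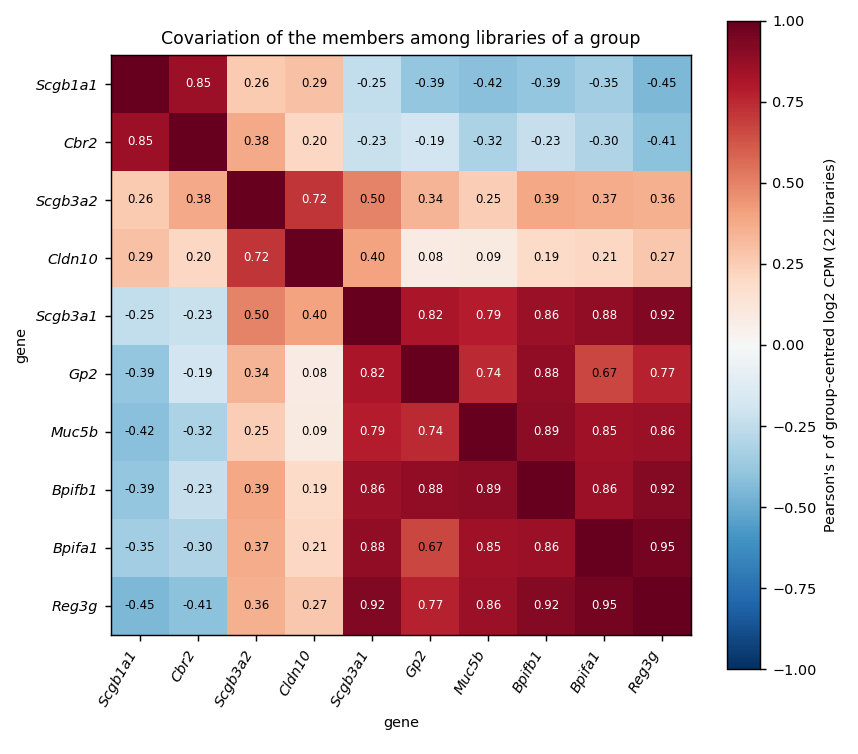
Pearson's r between members over 22 libraries, computed on log2 CPM after subtraction of the group means, with red for positive and blue for negative values. Scgb3a1, Gp2, Muc5b, Bpifb1, Bpifa1 and Reg3g form a block with r between 0.67 and 0.95, apart from the pairs Scgb1a1 with Cbr2 (0.85) and Scgb3a2 with Cldn10 (0.72).

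Although they varied together between libraries, some of these 6 genes differed in their ratio to Bpifb1 between hypoxia and normoxia. Gp2 had 0.0508 to 0.239 CPM per CPM of Bpifb1 in hypoxia ABT-263 and 0.114 to 0.275 in hypoxia vehicle libraries, against 0.00733 to 0.0238 in normoxia ABT-263 and 0.0177 to 0.0354 in normoxia vehicle libraries. Every hypoxia library had a higher Gp2 to Bpifb1 ratio than every normoxia library. Scgb3a1 had 3.60 to 15.2 CPM per CPM of Bpifb1 in hypoxia ABT-263 and 8.93 to 16.3 in hypoxia vehicle libraries, against 2.11 to 5.42 in normoxia ABT-263 and 3.496 to 6.77 in normoxia vehicle libraries, without overlap between oxygen conditions for vehicle. For Muc5b the ratio went the other way by its medians, 0.370 in hypoxia ABT-263 and 0.297 in hypoxia vehicle, against 0.516 in normoxia ABT-263 and 0.626 in normoxia vehicle libraries, with overlap. Bpifb1 was taken as the common denominator after values were seen, and these ratios carry no test.

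**Figure D4:**
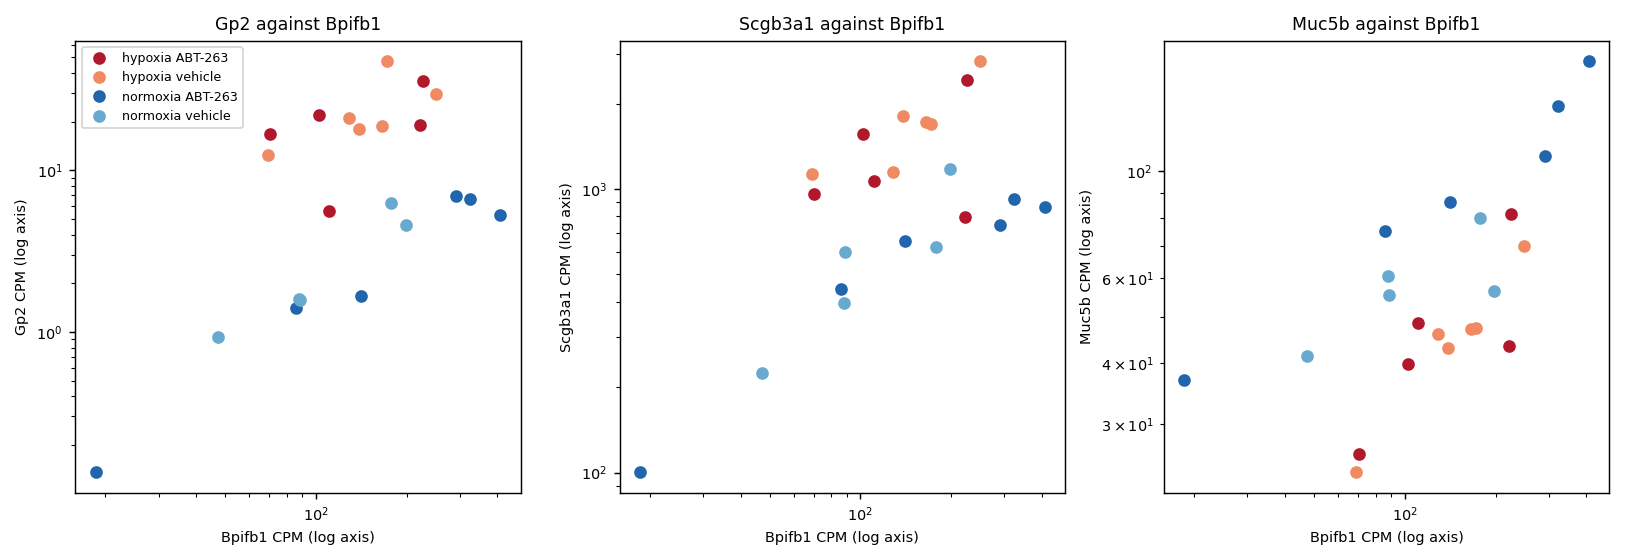
Levels of Gp2, Scgb3a1 and Muc5b against Bpifb1 in 22 libraries, in CPM on log axes, coloured by group. The Gp2 points of hypoxia libraries lie above those of normoxia libraries at the same Bpifb1 level, with ratios of at least 0.0508 in hypoxia and at most 0.0354 in normoxia.

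Markers of basal cells, the stem cells of the larger airways, were high in some of the same libraries, in ranges that overlapped between groups. The 8 listed basal cell genes, none of them at 0 in all libraries, summed to 4.34 to 14.3 CPM in hypoxia ABT-263, 4.22 to 30.6 CPM in hypoxia vehicle, 3.67 to 14.9 CPM in normoxia ABT-263 and 4.84 to 6.499 CPM in normoxia vehicle libraries. The sum was highest in hypoxia vehicle replicate 5 (30.6 CPM) and replicate 3 (17.2 CPM), where Bpifa1 was at 3135 CPM in replicate 5 and 1277 CPM in replicate 3. It was lowest in normoxia ABT-263 replicate 3 (3.67 CPM), where Bpifa1 was at 29.5 CPM, its lowest level. Over both treatments 2 of 6 tested basal genes were higher, Krt5 (2.25 ± 0.85, adjusted p = 0.0341) and Aqp3 (0.93 ± 0.38, adjusted p = 0.0436), and none lower, where 23% of all genes tested were higher. With vehicle the same 2 were called and the median was 1.29, where 13.5% of all genes tested were higher. With ABT-263 0 of 6 were called, where 17.9% of all genes tested were higher. There Krt5 was at 0.62 ± 1.12 and Aqp3 at 0.05 ± 0.51, and the median was 0.04. Without the 3 libraries with conflicting labels 0 were called over both treatments. Krt5 had at most 63.65 counts in a library and was at 0 in at least 1 library of each normoxia group. In normoxia vehicle libraries Krt5 had at most 3 counts, under the minimum count of 10, so it passed the filter only through other groups. Its median was 0.212 CPM in hypoxia ABT-263, 1.19 in hypoxia vehicle, 0.069 in normoxia ABT-263 and 0.0749 in normoxia vehicle libraries. Counts of called basal genes that include Krt5 are therefore only descriptions beside the share of all genes. The 12 genes listed for airway cartilage summed to 7.39 to 10.4 CPM in hypoxia ABT-263, 5.06 to 9.61 CPM in hypoxia vehicle, 3.86 to 6.17 CPM in normoxia ABT-263 and 3.75 to 6.43 CPM in normoxia vehicle libraries. Of the 3 that were tested Hapln1 rose (1.9596 ± 0.17), while Col9a3 was at −0.16 ± 0.26 and Col11a2 at −0.23 ± 0.19. The defining cartilage genes Acan, Col2a1 and Matn1 were near 0 in all 4 groups, with at most 4 counts in a library for Acan, 3 for Col2a1 and 3 for Matn1. The part of large airway tissue in the differences of Gp2, Scgb3a1, Reg3g and Bpifa1 was not tested.

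The genes whose pattern was most like that of each member, by r of group-centred log2 CPM over 22 libraries among all genes tested, differed between members. Scgb1a1 was followed most closely by Vmac (0.92), the secretoglobin Scgb1c1 (0.92) and the club cell cytochrome P450 Cyp2f2 (0.88). Cbr2 was nearest to Selenbp1 (0.94), the P450 reductase Por (0.93) and the acetyl-CoA synthetase Acss2 (0.92). For Scgb3a1 the nearest were the trefoil peptide Tff2 (0.95), Reg3g (0.92) and Bpifa1 (0.88), and for Muc5b the lactoferrin gene Ltf (0.92), Bpifb1 (0.89) and the peptidoglycan recognition protein Pglyrp1 (0.89). Gp2 was nearest to Bpifb1 (0.88), Ltf (0.83) and Scgb3a1 (0.82). The nearest to Bpifa1 were Reg3g (0.95), B3galt2 (0.92) and Adh7 (0.91), and to Reg3g they were Bpifa1 (0.95), Tff2 (0.93) and Scgb3a1 (0.92). Bpifb1 was nearest to Reg3g (0.92), Ltf (0.91) and Agr2 (0.90), a protein of the secretory pathway in mucus cells. Scgb3a2 was nearest to 1700037C18Rik (0.90), Etfa (0.86) and Gstt2 (0.85), and Cldn10 to Rabggtb (0.88), Ndufv2 (0.88) and Ndufa3 (0.87). These values are descriptions, each the highest of many genes compared.

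Other genes of club cells were lower in hypoxia or not called. Of 19 tested genes listed for club cells besides the members, 13 fell over both treatments and none rose, with a median log2 fold change of −0.52, where 26% of all genes tested were lower and their median was −0.02. The smallest p values belonged to the P450 enzyme Cyp4b1 (−0.91 ± 0.08), the cholecystokinin receptor Cckar (−0.80 ± 0.08) and the sodium channel subunit Scnn1b (−0.59 ± 0.07). With ABT-263, 14 of 19 fell, where 21.3% of all genes tested were lower. With vehicle 7 of 19 fell, where 12.8% of all genes tested were lower. None of the 19 rose with either treatment. This list, like the other gene lists here, was chosen with earlier results of these data known. Its counts beside the shares of all genes are therefore descriptions. The count over both treatments was 13 without the 3 libraries with conflicting labels and 14 when TMM factors were not applied. Summed, the 20 listed genes had 9755 to 12692 CPM in hypoxia ABT-263 and 9847 to 14227 CPM in hypoxia vehicle, against 12550 to 20948 CPM in normoxia ABT-263 and 14791 to 17474 CPM in normoxia vehicle libraries. With vehicle these sums did not overlap.

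Transcription factors listed for airway epithelium were lower as well, and whole-lung RNA does not show in which epithelial cells they fell. Over both treatments 12 of 14 fell and none rose, where 26% of all genes tested were lower and 23% higher. Among those that fell were Ehf (−0.62 ± 0.09), Elf3 (−0.58 ± 0.08) and Foxa2 (−0.40 ± 0.06). The median of the 14 was −0.39, beside −0.02 for all genes tested. The count was 11 with RLE factors, and without the 3 libraries with conflicting labels 10 were lower and 1 higher. Nkx2-1, which directs lung epithelial genes and was named after its values were seen, fell by 0.37 on the log2 scale (−0.37 ± 0.06). All 8 genes common to epithelia fell, with Cdh1, the adhesion protein E-cadherin, at −0.49 ± 0.07, Krt18 at −0.40 ± 0.07 and Cldn4 at −0.61 ± 0.12. With ABT-263 all 8 were called lower, where 21.3% of all genes tested were lower. With vehicle 1 was called, Cdh1 (−0.32 ± 0.10), where 12.8% of all genes tested were lower. The difference between the treatments was called for none of these 8 genes. The part of the lower levels of these 8 genes in the falls of Scgb1a1 and Cbr2 was not tested.

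Mucin and goblet cell genes, and secreted defence genes, moved in both directions, beside 23% of all genes tested higher and 26% lower. Of 14 mucin and goblet cell genes 5 fell over both treatments, including Muc20 (−1.04 ± 0.12) and the transcription factor Creb3l1 (−0.68 ± 0.10), which is also among the 12 airway factors that fell, and 1 rose, the anion exchanger Slc26a4 (1.59 ± 0.24). Of 10 defence genes of the airway lining 4 rose and 4 fell, with the acute phase protein Saa3 at 1.55 ± 0.24, the haptoglobin gene Hp at −0.42 ± 0.09 and Pigr, which carries IgA across epithelium, at −0.66 ± 0.13. Chil4 and Saa3 have close relatives in the genome, so their values are uncertain. Ciliated cells, the other main type of the airway surface, had 2 of 15 genes higher and 2 lower, with a median of −0.08. Their sum was 1360 to 2008 CPM in hypoxia ABT-263, 1405 to 2147 CPM in hypoxia vehicle, 1521 to 2175 CPM in normoxia ABT-263 and 1500 to 1970 CPM in normoxia vehicle libraries, with the 4 ranges overlapping. With vehicle 2 of the 15 were higher and none lower (median 0.19), beside 13.5% of all genes tested higher and 12.8% lower. With ABT-263 none was higher and 5 were lower (median −0.34), beside 17.9% higher and 21.3% lower. The difference between the treatments was called for none of these 15 genes.

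**Figure D5:**
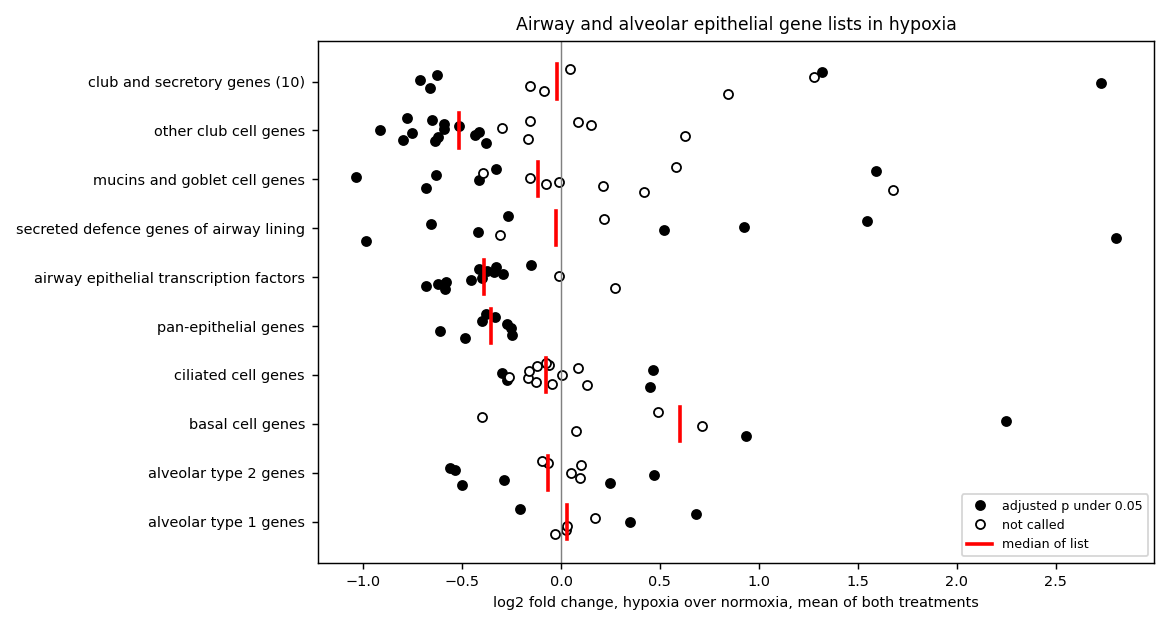
Log2 fold change of each tested gene, hypoxia over normoxia as the mean of both treatments, by list; filled points passed an adjusted p under 0.05 and red bars are list medians. The other club cell genes have a median of −0.52 and the airway transcription factors one of −0.39, while the 10 club and secretory genes span −0.72 to 2.73.

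None of the 10 members passed the test for ABT-263 over vehicle, in edgeR or under any of the 31 alternatives tried within hypoxia and within normoxia. In hypoxia, where 0.301% of all genes tested were called, the smallest p belonged to Scgb1a1 (−0.39 ± 0.16 by edgeR, adjusted p = 0.277), whose ABT-263 libraries had a median of 39461 CPM against 51734 CPM with vehicle, with overlap. In normoxia, where 0.535% were called, it belonged to Muc5b (0.79 ± 0.33 by edgeR, adjusted p = 0.303), with 4 of 6 ABT-263 libraries above the highest vehicle library. Averaged over both oxygen conditions, where 2.54% were called, Scgb1a1 came nearest (−0.24 ± 0.11, adjusted p = 0.28). For Gp2 the 95% interval of the ABT-263 difference ran from −1.37 to 0.72 in hypoxia and from −1.04 to 1.65 in normoxia. For Cbr2 it ran from −0.52 to 0.0020 in hypoxia and from −0.06 to 0.46 in normoxia.

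Whether hypoxia acted differently with ABT-263 than with vehicle was tested as the interaction. No member was called, and neither was any other gene by edgeR (0% of those tested, with 1546 at an unadjusted p under 0.05), while DESeq2 called 17 genes, no member among them, and limma-voom 0. All 10 members had a negative interaction value, all from the same 22 libraries, and the smallest p was that of Cbr2 (−0.46 ± 0.19 by edgeR, adjusted p = 0.448). The larger fall of Cbr2 and Scgb1a1 with ABT-263 than with vehicle is therefore not shown to be a difference between treatments.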

How the data were processed

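Whole-lung RNA of 22 libraries was sequenced on a NextSeq instrument from TruSeq stranded mRNA libraries, per the labels' protocols. Trimmomatic, STAR and RSEM and the build GRCm38 are named in the submitters' processing notes, without versions. The deposited values are expected counts per gene, made by the authors with RSEM per those notes, for 54532 genes; 54495 identifiers matched GENCODE M21, which gave the coordinates and exon lengths. Library totals were 11509007 to 15744193. On average over the genes tested, every pair of libraries in a group differed by more than sampling noise. The mean chi-square per gene was 5.15 to 37.4 between pairs, which does not hold for every single gene.

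Expected counts were rounded. Genes were filtered with filterByExpr (minimum count 10), scaled by TMM and fitted in 4 groups at once with edgeR 4.0.16 under R 4.3.3, using its quasi-likelihood F test with robust dispersion, two-sided, with Benjamini-Hochberg adjustment over 16638 genes and a threshold of 0.05. The standard error is the log2 fold change over the square root of F. Hypoxia over both treatments is the mean of both hypoxia differences, and the interaction is their difference. CPM values are counts relative to the TMM-scaled library total, and TPM values union exon lengths. Correlations use log2 CPM with a prior count of 2 and 100000 resamples, adjusted over 45 pairs. The test was tried on simulated data with known changes. Alternatives were DESeq2 1.42.0, limma-voom of limma 3.58.1, other scaling, no filter, other treatment of the 3 libraries with conflicting labels, only the groups compared, each library left out, and, chosen after seeing the data, normoxia ABT-263 replicates 2 and 6 left out and, for the correlations, normoxia ABT-263 replicate 3 or that whole group left out.

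All 10 members are reported whatever their values, with up to 3 genes of smallest p per list and the 3 genes most like each member. Members and lists were chosen with earlier results of these data known. Promoters are RefSeq windows of GRCm38.p6.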

Additional observations from a re-analysis of the deposited data

Results flagged for a closer look

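Among 40 combinations of gene and group, 2 had a library that stood apart from the others of its group by Dixon's test at the 95% level, and chance alone gives about 1 in 20. Scgb3a1 in normoxia ABT-263 replicate 3 was 100.479 CPM, where the other 5 libraries of the group had 444.833 to 919.537 CPM. The same library was also the lowest of its group for Bpifa1, Bpifb1, Muc5b, Gp2 and Reg3g. Scgb3a2 in hypoxia ABT-263 replicate 5 was 2194.05 CPM, where the other 4 libraries had 3108.41 to 3445.12 CPM.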

How the results depend on the processing

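No paired analysis was possible because the replicate numbers only follow the order of the samples. Over both treatments Scgb1a1, Scgb3a1, Cbr2 and Gp2 kept their direction and their call under all 30 alternatives. Of 1840 values of single members under 31 settings, 1732 kept direction and side of the threshold, 35 lost a call, 16 gained one and 57 turned sign, and the cause was not tested. The members called with vehicle numbered 1 without the 3 libraries with conflicting labels, in place of 4, and 2 to 4 with single libraries left out; with ABT-263 they numbered 3 to 6, in place of 5. All sign changes were of values that were not called. Limma-voom gave 0.21 for Bpifa1 in hypoxia with ABT-263, 0.16 for Bpifb1 over both treatments, and −0.035 for Scgb3a1 and −0.11 for Gp2 for ABT-263 in normoxia. Without the libraries with conflicting labels the same values were 0.064 for Bpifa1, 0.037 for Bpifb1, −0.027 for Scgb3a1 and −0.0048 for Gp2. With the treatment read from the tag they were 0.13 for Bpifa1, −0.071 for Scgb3a1 and −0.29 for Gp2, with 0.024 for Bpifb1 and −0.017 for Muc5b for ABT-263 in hypoxia and 0.27 for the Gp2 interaction. Without normoxia ABT-263 replicates 2 and 6 Bpifa1 was 0.66 and Bpifb1 0.13 in hypoxia with ABT-263, Bpifb1 was 0.24 over both treatments, and ABT-263 in normoxia gave 0.10 for Scgb1a1, −0.31 for Scgb3a1, −0.19 for Gp2 and −0.33 for Reg3g. Library totals gave −0.012 for Cldn10 with vehicle, and only the groups compared gave 0.0039 for Bpifa1 with ABT-263. With single libraries left out the ranges were −0.86 to 0.26 for Bpifa1 and −0.12 to 0.059 for Scgb3a2 in hypoxia with ABT-263, −0.10 to 0.10 for Cldn10 with vehicle, and −0.20 to 0.070 for Bpifb1 over both treatments. For ABT-263 in hypoxia they were −0.28 to 0.12 for Bpifb1, −0.23 to 0.21 for Muc5b, −0.89 to 0.071 for Reg3g and −0.14 to 0.035 for Scgb3a2, and in normoxia −0.0046 to 0.75 for Gp2 and −0.18 to 0.42 for Scgb3a1. Genes called for ABT-263 in hypoxia numbered 50 by edgeR (19 higher and 31 lower), 247 by DESeq2, 12 by limma-voom, 0 with the treatment read from the tag and 3 to 228 with single libraries left out; with library totals 20 were higher and 16 lower. In normoxia they numbered 89 by edgeR, 324 by DESeq2, 16 without the libraries with conflicting labels, 0 with the tag and 1 to 183 with single libraries left out. Over both oxygen conditions they numbered 423 by edgeR, 793 by DESeq2, 239 by limma-voom and 0 with the tag.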

Other observations

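Other epithelial cell types of the lung moved in part. Among genes listed for neuroendocrine cells, over both treatments in hypoxia Resp18 fell (−1.003 ± 0.17) and Uchl1 rose (0.58 ± 0.09). Of 11 alveolar type 2 genes 2 rose and 4 fell with a median of −0.07, and of 7 alveolar type 1 genes 2 rose and 1 fell with a median of 0.03. Among all genes tested 23% rose and 26% fell, with a median of −0.02.

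Only 3 of 13 listed relatives of Bpifa1 and Bpifb1 were expressed enough to test. Over both treatments Lbp, which binds bacterial lipopolysaccharide, rose (0.32 ± 0.07) and Bpifb5 fell (−0.32 ± 0.12).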
